A study of Mus musculus with 2 samples.

Results

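Some of the long-read transcript models built from mouse adrenal gland follow an annotated gene from its start and stop before its 3′ part. TALON, the program that built the models, calls them incomplete splice matches of the Prefix kind: their splice junctions are the first junctions of a longer transcript. The members described here are the Prefix models of annotated genes with at least 5 reads in their own library. There were 628 of them in replicate 1, among 100916 models of annotated genes of which 18475 had at least 5 reads. Replicate 2 had 49, among 52956 models of which 9770 had at least 5 reads. Over both libraries they made up 637 distinct chains of junctions in 497 genes. The members were chosen by their class and their read count, so their number and their reads are descriptions.

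The study sequenced long RNA reads from adrenal glands of female B6CASTF1/J mice aged 36 days, a cross of the strains C57BL/6J and CAST/EiJ. Its 2 libraries, biological replicates 1 and 2, form 1 group with no treatment or second condition. Replicate 1 started from 1 µg of RNA, and the labels used here give no amount for replicate 2. The label fields give the animals partly the same and partly different numbers, so any spread and p-value speak of the libraries, not of separate animals. There were 1223776 reads in replicate 1, 1144572 of them on annotated genes, and 453761 and 414588 in replicate 2. Levels are CPM, that is reads per 1000000 reads of annotated genes, and 3 reads, the upper limit that a count of 0 allows, equal 2.62 and 7.24 CPM.

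A messenger RNA normally gets its 3′ end by cleavage and addition of a poly(A) tail, a short distance after a signal of which AATAAA and ATTAAA are the most common forms. A signal inside an intron can be used before the intron is spliced, which gives a shorter RNA with an end of its own. Copying into cDNA usually starts from a primer that pairs with the tail, and such a primer can also pair with a run of A inside the RNA, which gives a cDNA that looks like a shorter transcript. A library of full-length reads shows the end at which copying began and not how that end arose.

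The sequences below are examples picked for the letters around their ends, and they do not show how common such ends are among the members. They are mm10 sequence of GENCODE M21 transcripts, 5′ to 3′ in the direction of the gene. The first set is shown because these members stop at a purine-rich run of A. In it 30 bases lie before the end of the model and 30 after it, and the capitals mark the 20 bases after the end.
Son: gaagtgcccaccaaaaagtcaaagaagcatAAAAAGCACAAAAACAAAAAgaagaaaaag
Eif5: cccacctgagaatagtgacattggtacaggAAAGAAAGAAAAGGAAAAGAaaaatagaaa
Srrm2: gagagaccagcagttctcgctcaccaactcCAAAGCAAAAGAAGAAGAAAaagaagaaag
Mtdh: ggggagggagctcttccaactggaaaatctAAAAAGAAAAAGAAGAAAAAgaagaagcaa
Abcb1b: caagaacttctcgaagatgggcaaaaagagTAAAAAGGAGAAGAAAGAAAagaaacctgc
Smap1: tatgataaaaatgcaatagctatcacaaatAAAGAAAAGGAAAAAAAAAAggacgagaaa
The capitals hold 16 A in Son (chr16:91654670-91654729), 15 in Eif5, 14 in Srrm2 (chr17:23809977-23810036), 17 in Mtdh (chr15:34134315-34134374), 14 in Abcb1b and 17 in Smap1. All lie in protein-coding sequence. In Abcb1b and Smap1 the model stops at the last base of an exon and the capitals are the start of the next exon, at chr5:8805433-8805462 and, on the minus strand, chr1:23866268-23866297. The Eif5 model stops 118 bp before the end of its exon, at base 111541727 of chromosome 12.

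The second set is shown because these members hold sequence of the intron after their last junction and end after a poly(A) signal, which stands in capitals. Mbd3 and Pex16 run through that intron, and Cops7a and Zscan29 end inside it.
Mbd3: actttccttcAATAAActgatggtagga
Pex16: cctcttctctAATAAAcctgactctggt
Cops7a: atgacacagaAATAAAtctatgagaaat
Zscan29: ttttaaaataAATAAAtcatggctgaaa
The signals begin 26, 24, 30 and 18 bases before the last base of these models. The positions are chr10:80392548-80392575 on the minus strand, chr2:92381182-92381209, chr6:124958829-124958856 on the minus strand and chr2:121165642-121165669 on the minus strand.

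All Prefix models together, with no read minimum, held 20148 reads or 1.76% of the reads of annotated genes in replicate 1 (95% Wilson interval 1.74 to 1.78). In replicate 2 they held 1972 reads or 0.476% (0.455 to 0.497). The members alone held 11906 reads (1.04%) and 552 reads (0.133%), a mean of 0.587% ± 0.641 (SD, n = 2). The share of this class was thus higher in replicate 1, by more than counting error. Models of the Suffix kind, which lack the 5′ part, stood the other way round at 7.35% in replicate 1 and 9.0% in replicate 2. With replicate 1 thinned at random to the depth of replicate 2, 210 Prefix models had at least 5 reads against 49 in replicate 2, and 783 Suffix models against 858. Intervals and limits cover counting error only, because the reads carry no molecular identifiers in the tables used.

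Reads were concentrated in few models. The median member had 8 reads in replicate 1 and 7 in replicate 2, and 28 and 2 members had at least 50. Of the Prefix models, 124 and 15 had exactly 5 reads and were kept, while 212 and 23 had exactly 4 and were not. Hsp90ab1 and Abcb1b together held 24.8% of the member reads of replicate 1. Without them all Prefix reads were 1.5% and 0.459%. Members were mostly alone in their gene: 400 of 491 genes in replicate 1 and 40 of 43 in replicate 2 had 1 member, and Abcb1b had the most, 10 and 3.

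The tissue label was checked against defining genes. Adrenal cortex genes (Star, Cyp11a1, Cyp11b1, Cyp21a1 and Nr5a1) summed to 54340 and 71555 CPM, and medulla genes (Th, Dbh, Pnmt and Chga) to 6289 and 4192. Of the cortex genes only Cyp11a1 was higher in replicate 2 (20811 and 41366 CPM), while Star, Cyp11b1, Cyp21a1 and Nr5a1 were lower there. These levels include models with 1 exon, which held a larger part of the Cyp11a1 reads in replicate 2 than in replicate 1. The higher Cyp11a1 level and cortex sum there are therefore not shown for spliced models. All 4 of the fat genes tried (Fabp4, Cidea, Adipoq and Ucp1) were read in both libraries, with sums of 2647 and 5502. The 4 skeletal muscle genes tried summed to 822 CPM in replicate 1 and 4.82 in replicate 2, where Tnnc2 and Atp2a1 had 0 reads. Kidney genes Umod and Slc12a1 had 0 reads in both, and the liver genes Alb and Apoa1 summed to 13 reads in replicate 1 and 0 in replicate 2. The 4 muscle genes were thus higher in replicate 1, as the Prefix share was. Of the fat genes Fabp4 and Cidea were higher in replicate 2, while Adipoq (295 and 311 CPM) and Ucp1 (787 and 671) differed less. Their part in the differences below was not tested. In bulk tissue, fewer cells of a type and less RNA per cell cannot be told apart.

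**Figure D1:**
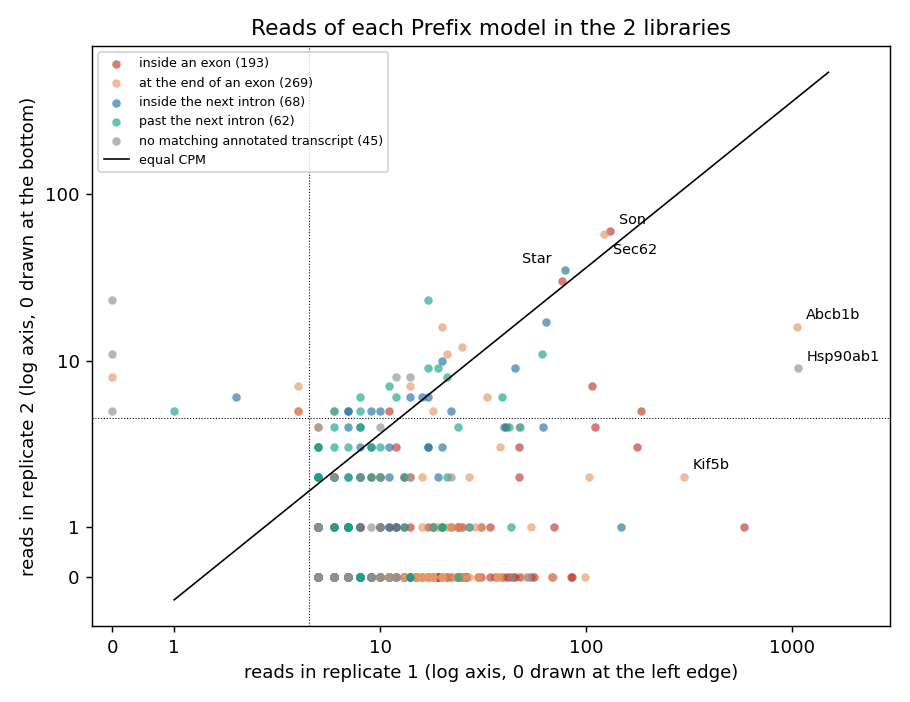
Each point is 1 of the 637 junction chains, with its reads in replicate 1 (horizontal, log axis) against its Prefix reads in replicate 2 (vertical, log axis), coloured by where the model ends. Dotted lines mark the minimum of 5 reads and the solid line equal CPM. Son, Sec62 and Star lie close to the solid line, and Hsp90ab1, Abcb1b and Kif5b far below it.

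The label was then tested against the annotation. Of the members, 586 in replicate 1 and 43 in replicate 2 were the first junctions of a longer annotated transcript, called the matched transcript below. The other 42 and 6 were not. Of these, 38 and 4 matched the start of an unannotated model alone, and 4 and 2 had junctions that lie only inside annotated chains. Those 4 held 1079 reads, 1062 of them in the most read member of all, a 2-exon model of Hsp90ab1. The 5′ side of the members was well placed: 614 of 628 (97.8%) and 47 of 49 (95.9%) began exactly at an annotated transcript start. Matched transcripts had a median of 3542.5 bp and 2559 bp, where the most read transcripts of all spliced genes with at least 20 reads had medians of 2373.5 bp and 2073.5 bp. These medians are not of like kind. A matched transcript must have more junctions than its member, and among equally read ones the longest was taken. For 127 and 11 members it had 0 reads. The members lacked a median of 5 exons in replicate 1 (1 to 89) and 2 in replicate 2 (1 to 26).

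Exact cleavage positions could not be read for most members. Each chain occurs once per library in the deposited annotation and so carries 1 end, whatever the spread of its reads. In replicate 1, 557 of 628 ends (88.7%) lay exactly on an annotated position: 254 on the end of an annotated transcript of the gene, 268 on the last base of an annotated exon and 35 on the first base of one. In replicate 2 it was 39 of 49 (79.6%), with 22, 16 and 1. Of the replicate 1 ends within 300 bp of an annotated transcript end, 254 of 267 were exactly on it. Suffix models ended on an annotated transcript end in 89.1% and 90.0%. An end that sits on an exon boundary is therefore a statement of the model and need not be the last base of the RNA.

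Most ends fell inside the body of the gene. In replicate 1, 266 of the 586 members with a matched transcript ended on the last base of an exon that is followed by another, 192 ended inside an exon, 67 ran into the following intron, and 61 ran through that intron and beyond. In replicate 2 the numbers were 15, 6, 11 and 11 of 43. An end on the first base of the next exon counted as an end in the intron. The end was inside the coding part in 501 of 568 members (88.2%) with a coding matched transcript in replicate 1 and in 21 of 34 (61.8%) in replicate 2, and those members kept a median of 43.3% and 47.8% of it. By the stricter definition, with no annotated exon of the gene over the end, 31 of 628 (4.94%, 3.50 to 6.92) and 3 of 49 (6.12%, 2.10 to 16.5) ended in an intron. Within 50 bp of an annotated transcript end of the gene were 259 (41.2%, 37.5 to 45.1) and 23 (46.9%, 33.7 to 60.6). Of the transcripts whose end was met exactly in replicate 1, 115 are annotated as protein-coding, 66 as retained introns, 42 as processed transcripts and 26 as targets of nonsense-mediated decay.

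Some members do not lack the 3′ end at all. Of the members that ran past the next intron, 39 of 61 in replicate 1 and 9 of 11 in replicate 2 ended within 50 bp of the end of their matched transcript: they keep the intron sequence after their last junction and reach the annotated end. Of the 42 members of replicate 1 without a matched transcript, 11 ended within 50 bp of the last annotated end of the gene.

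The difference between the libraries was not the same for all ends. All Prefix reads ending inside an exon stood at 4466 CPM in replicate 1 and 550 in replicate 2, a ratio of 8.12. Those ending on the last base of an exon stood at 6737 and 1163, a ratio of 5.79. Reads ending in the next intron stood at 2604 and 1356 (1.92), and those that ran past it at 1640 and 1061 (1.55). Exon ends together gave a ratio of 6.54 and intron-containing ends 1.76. Without Hsp90ab1 and Abcb1b these were 5.92 and 1.75. Both portions were thus higher in replicate 1, the exon ends by the larger ratio. The reads in the next intron include models placed on the first base of the next exon. Among replicate 1 members, 35 of 628 ended on the first base of an annotated exon. The contrast is thus not one of ends that all lie within introns.

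**Figure D2:**
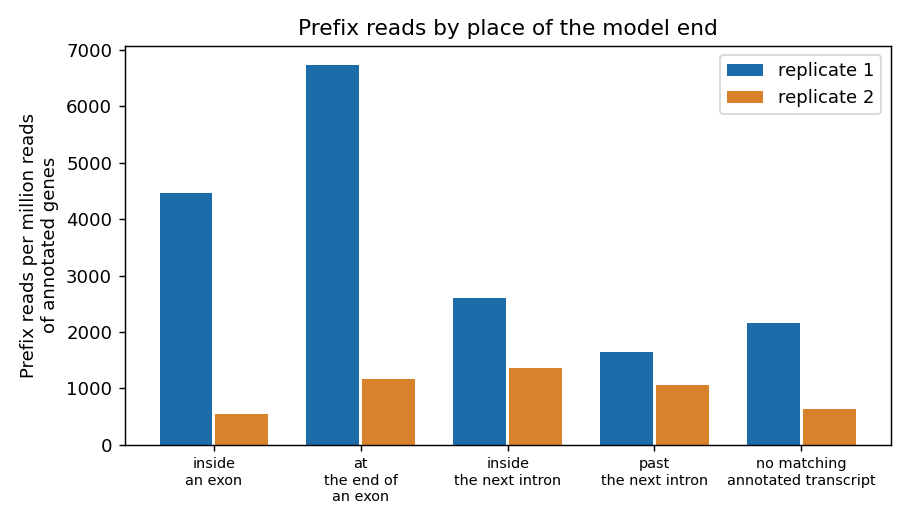
Bars give the CPM of all Prefix reads (vertical, from 0) by the place of the model end (horizontal), for replicate 1 and replicate 2. The bars for ends inside an exon and at the end of an exon reach 4466 and 6737 in replicate 1 against 550 and 1163 in replicate 2.

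What followed the ends also differed with their place. In replicate 1, at least 10 of the 20 bases after the end were A for 208 of 478 members (43.5%, 39.1 to 48.0) whose following spliced sequence could be read. In replicate 2 it was 6 of 28 (21.4%, 10.2 to 39.5). Of members that end inside an exon, 109 of 165 (66.1%, 58.5 to 72.8) had such a stretch in replicate 1, and of those at the end of an exon 93 of 266 (35.0%, 29.5 to 40.9). The other internal exon ends of the same matched transcripts, in which no member ends, had one in 522 of 6306 (8.28%, 7.62 to 8.98). Suffix models had one in 17% and 7.14%, over the 643 and 224 whose following sequence could be read. A stretch of A after the end was thus far more common at these members than at the exon ends beside them in the same transcripts. Split by annotated position, 104 of 170 replicate 1 ends on an annotated transcript end had one (61.2%, 53.7 to 68.2). It was 87 of 268 on the last base of an annotated exon and 17 of 40 on no annotated position (42.5%, 28.5 to 57.8). The A content thus describes mostly the annotated positions on which the models were placed. Members of 1 gene can share an end, and the ends are not independent.

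**Figure D3:**
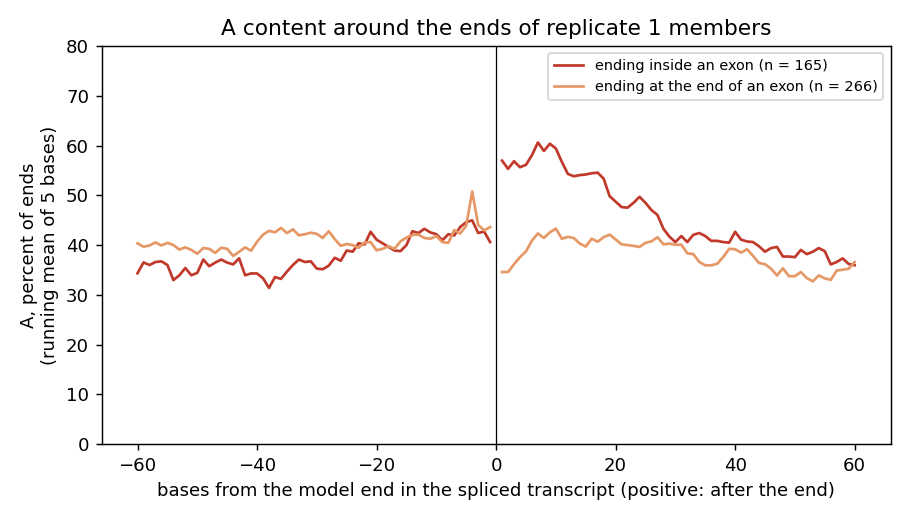
Lines give the share of ends with an A (vertical, percent, running mean of 5 bases) at each base before and after the end of the model in the spliced transcript (horizontal), for replicate 1 members ending inside an exon (n = 165) and at the end of an exon (n = 266). For the first group the mean A content is 55.7% over the 20 bases after the end and 35.8% over bases 60 to 41 before it, and for the second group 40.2% and 39.2%. Most of these ends were placed on annotated positions.

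At exon ends the A content rose little at the end itself: it averaged 41.6% over the last 20 bases of the model and 40.2% over the next 20. The whole exon was therefore searched for its richest 20 bases. At least 12 A in 20 were found in 405 of 583 exons in which a replicate 1 member ends or which it holds last (69.5%, 65.6 to 73.1). The other internal exons of those transcripts reached 22.3% (1408 of 6301). The share was 181 of 192 for members ending inside the exon, 194 of 266 for those at its end, 20 of 66 for those in the next intron and 10 of 59 for those past it. In replicate 1 the gap was also present among exons of 100 to 200 bp, with shares of 71.9% and 22.7%. In replicate 2 it was absent at that length, with 1 of 13 and 18 of 151. Shorter exons had 3 of 15 and 10 of 67 there, and longer ones 6 of 14 and 9 of 40. In replicate 2 the member exons reached 23.8% (10 of 42) and the others 14.3% (37 of 258), with intervals of 13.5 to 38.5 and 10.6 to 19.1 that overlap.

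Poly(A) signals were most common at the ends with intron sequence. AATAAA or ATTAAA was searched in the 40 bases before the end on the strand of the transcript, and an end with both, overlapping or not, counted once. In replicate 1, 119 of 561 members (21.2%, 18 to 24.8) had one, and in replicate 2 it was 18 of 44 (40.9%, 27.7 to 55.6). Ends inside an exon had one in 8.48% and ends at an exon end in 7.52% in replicate 1. Ends in the next intron had one in 22 of 37 (59.5%, 43.5 to 73.7) and ends past the next intron in 42 of 56 (75%, 62.3 to 84.5). Of the latter, those that reach the annotated end of the matched transcript had one in 34 of 37 and the others in 8 of 19. The annotated ends of Known spliced models with at least 5 reads held a signal in 74.4% in replicate 1 and 76.5% in replicate 2, Suffix models in 79.7% and 84.1%, and the other internal exon ends in 3.04% and 1.16%. The high share past the next intron thus came mostly from ends that are annotated ends themselves, and ends inside or at the end of an exon seldom held a signal. Of the 37 ends in the next intron only 8 had 20 bases of transcript after them. The others lay within 20 bases of the end of an annotated transcript. The share of 59.5% thus also describes mostly ends close to annotated ones. For 30 of the 67 members in the next intron the sequence was not analysed here. Left out were ends that no transcript sequence held and ends on the first base of an annotated exon. Ends with fewer than 40 bases of the same exon before them were also left out.

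**Figure D4:**
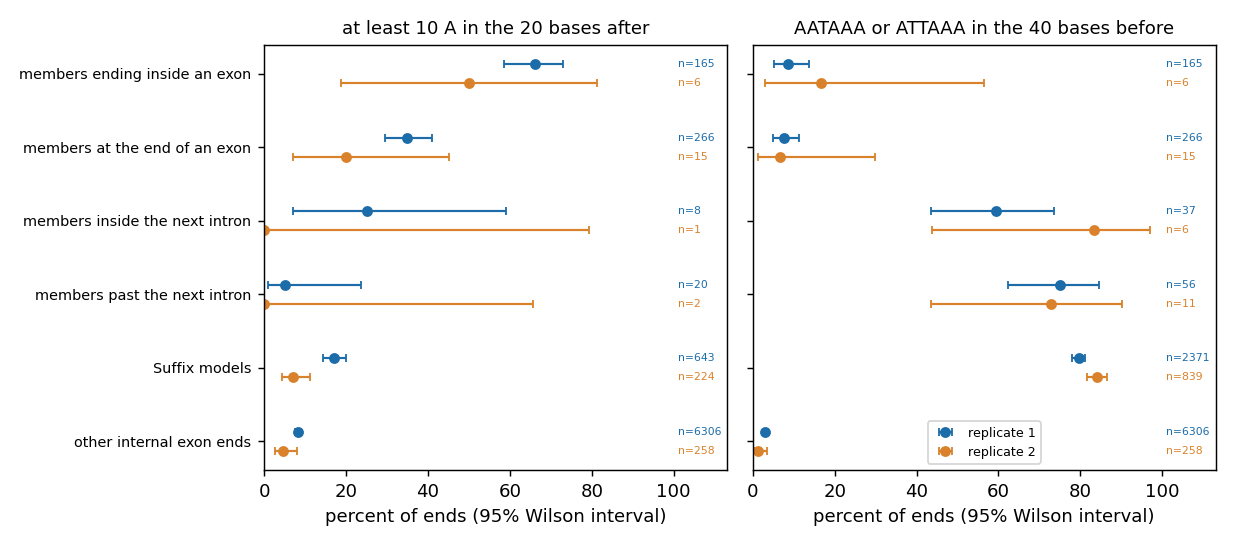
Points give the percent of ends (horizontal, with 95% Wilson intervals) with at least 10 A in the 20 bases after them (left) and with AATAAA or ATTAAA in the 40 bases before them (right), by place of the end and for Suffix models and other internal exon ends, in each library. In replicate 1 the A-rich share is 66.1% inside exons (109 of 165) and 5% past the next intron (1 of 20), and the signal share is 8.48% and 75%. The A-rich shares in and past the next intron rest on the 8 and 20 ends with readable following sequence, of 67 and 61 members. They are thus not the same ends as those searched for a signal.

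For replicate 1 members, repeat in the other library also differed with the place of the end. Of the replicate 1 members, 189 of 628 (30.1%, 26.6 to 33.8) had a Prefix model with the same junction chain in replicate 2, with at least 1 read. For Suffix models it was 75.6%. By place it was 22.4% of those ending inside an exon, 16.2% at an exon end, 62.7% in the next intron and 73.8% past it. Of members with 5 to 9 reads 21.5% were found, and of those with at least 50 reads 19 of 28. In the other direction 45 of 49 replicate 2 members (91.8%, 80.8 to 96.8) were found as Prefix models in replicate 1, which is the deeper library. In any class, 49 of 49 of these chains were present there. The places did not differ in this direction: 6 of 6 inside an exon, 14 of 15 at an exon end, 11 of 11 in the next intron and 11 of 11 past it. Where a chain was found as a Prefix model, its end was at the same base in 72.0% and 71.1%, which the placing of most ends on annotated positions helps to fix. Of the ends found again that lay on no such position, 14 of 31 and 6 of 9 agreed within 10 bp. Replicate 1 members with 0 Prefix reads in replicate 2 had at least 12 A in 20 in 77.9% of their last exons (321 of 412). Those with at least 5 reads in both had it in 25% (9 of 36). Some of the first set were present in replicate 2 in another class, as 206 of 628 chains were found there in any class. The 2 sets also differ in reads and in the place of their ends, with which this share varied, and these were not separated.

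Members with at least 5 reads in both libraries numbered 40. Of these, 12 ended in the next intron, 11 past it, 9 at an exon end and 5 inside an exon, while 3 had no matched transcript. The end lay within 50 bp in 33 and at the same base in 30, and 9 reached the end of the matched transcript. The places above are those of replicate 1.

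The members with the most reads are given by what their genes do, chaperones first. Hsp90ab1 encodes the constitutive cytosolic HSP90 and has processed copies elsewhere in the genome, so its reads are uncertain. Its 2-exon member had 1062 reads in replicate 1 and 9 in replicate 2, or 928 and 21.7 CPM. It ended at base 45570445 of chromosome 17, the annotated end of the retained-intron transcript Hsp90ab1-204. A 6-exon member with the same end had 581 reads and 1, and a 9-exon member 68 and 0. In total 1719 of 3425 reads of the gene in replicate 1 and 10 of 477 in replicate 2 were in Prefix models. Hsp90aa1, the inducible cytosolic form, had a 5-exon member with 111 and 4 reads, and 13 of 20 bases after its end were A. Hsp90b1, the form of the endoplasmic reticulum, had 1 member with 147 reads in replicate 1 and 1 Prefix read of that chain in replicate 2. It ran through an intron to the first base of the next exon. These members of the 3 genes were among the most read of replicate 1 and had 9 reads or fewer in replicate 2.

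Abcb1b encodes a P-glycoprotein, a drug efflux pump of the plasma membrane, and its reads are uncertain because Abcb1a is a near copy. Its 2-exon member had 1054 reads and 16, or 921 and 38.6 CPM, a ratio of 23.9 (exact 95% interval 14.6 to 41.9). It keeps 4.06% of Abcb1b-201 and stops at base 8798806 of chromosome 5, before the A-rich start of the next exon printed above. Other members of the same gene did not share this ratio. A 4-exon member that ran into intron sequence had 64 and 17 reads, 55.9 and 41 CPM, a ratio of 1.36 (0.789 to 2.48), and its ends were 868 bp apart. A 5-exon member had 25 and 12 reads, 21.8 and 28.9 CPM.

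Further members with many reads ended inside or at the end of a coding exon. Son, a splicing cofactor of nuclear speckles, had 131 and 60 reads, 114 and 145 CPM, in 1 member that stopped at the same base in both libraries, 91654699 of chromosome 16. This end is on no annotated boundary and lies 5881 bp before the end of a very long coding exon. Sec62, a subunit of the protein translocation machinery of the endoplasmic reticulum, had 122 and 58 reads at an exon end, 107 and 140 CPM. These 2 were level in the libraries, with ratios of 0.791 (0.578 to 1.09) and 0.762 (0.553 to 1.06). Srrm2, a scaffold of nuclear speckles, had 177 and 3 reads, a ratio of 21.4 (7.19 to 105). Eif5, which activates the GTPase of the initiation complex, had 185 and 5 reads, a ratio of 13.4 (5.64 to 41.8). Kif5b, a heavy chain of kinesin, had 297 and 2 reads, a ratio of 53.8 (14.8 to 446), at an exon end whose exon holds a stretch with 16 A in 20. Psmd1, a base subunit of the proteasome cap, had 107 and 7 reads, and Mtdh, a lysine-rich membrane protein, 85 and 0, at least 10.3-fold higher in replicate 1 by the limit of 3 reads. An A-rich stretch was thus present both at members that repeated and at members that nearly vanished in replicate 2.

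Of the genes of steroid hormone synthesis, Star, Cyp11a1 and Cyp21a1 had a member in both libraries. Star, which brings cholesterol into the mitochondrion, had 1 member with 79 reads and 35, or 69.0 and 84.4 CPM. It ended at the same base in both libraries, 25812423 of chromosome 8, 540 bp into the 889 bp last intron of Star-201. It is 1 of the 2 members with an end that no annotated exon of the gene covers, at least 5 reads in each library and ends within 50 bp. The other is a 5-exon model of Pik3c2g, a class II phosphoinositide kinase, with 14 and 6 reads and an end at 139856573 of chromosome 6. Against all Star reads, 12228 and 3648, Prefix reads were 0.720% and 1.10%. Cyp11a1, the side-chain cleavage enzyme that begins steroid synthesis, had a 2-exon member with 62 and 4 reads that ran into its next intron. Its 7-exon member had 12 and 6 reads, kept the introns after its last junction and reached the end of Cyp11a1-201 at 58027023 of chromosome 9. Cyp21a1, a steroid hydroxylase with a near-identical pseudogene and thus uncertain, had 1 member in each library, with 10 and 23 reads. Both ended at the annotated end of Cyp21a1-201 and followed unannotated chains, so they lack no 3′ end of the annotated gene, and neither chain was found as a Prefix model in the other library. Plin1 is no gene of steroid synthesis and coats lipid droplets in fat and steroid cells. It had 3 members in each library, of which a 7-exon model at an exon end had 14 and 7 reads.

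Further members were found in both libraries with at least 5 reads. Mbd3, a methyl-CpG-binding-domain protein, had 61 and 11 reads in a model that retained the 76 bp last intron and reached the end of Mbd3-204. Pex16, a peroxisome assembly factor, had 21 and 8 reads and Srsf2, an SR splicing factor, 17 and 9, each with the last intron kept to the end. Cops7a, a subunit of the COP9 signalosome, had 9 and 5 reads ending on the annotated intronic end of Cops7a-201. Zscan29, a zinc finger gene, had 10 and 5 reads with ends 4 bp apart in the next intron of Zscan29-202, near 121165641 of chromosome 2. Ccnl2, a cyclin of splicing and transcription, had 76 and 30 reads in a model that ended inside an exon of Ccnl2-205, with ends 426 bp apart. In CPM, the ratios of replicate 1 to replicate 2 were 2.01 in Mbd3, 0.951 in Pex16, 0.684 in Srsf2, 0.652 in Cops7a, 0.724 in Zscan29 and 0.918 in Ccnl2.

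The share of Prefix reads among all reads of a gene was set against that in the other library by a two-sided Fisher's exact test per gene, adjusted by Benjamini-Hochberg over 3694 genes with at least 20 reads in each library. The test compares these libraries by counting error and not conditions. It called 45 genes (1.22%), 43 lower in replicate 2 (1.16%) and 2 higher (0.0541%). All 45 had a member in replicate 1 and 8 had one in replicate 2. The rule that chose the members used the same reads, so nothing is read from that overlap.

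Among genes with at least 50 reads in each library the largest falls were in Dus1l, Knop1 and Hsp90ab1. Dus1l, a tRNA dihydrouridine synthase, had 105 Prefix reads of 157 (66.9%) in replicate 1 and 0 of 53 in replicate 2 (adjusted p = 3.66e-17, Fisher's exact test). Its members with 52 and 43 reads followed unannotated chains to the annotated end of Dus1l-203 at 120789201 of chromosome 11. Knop1, a lysine-rich nucleolar protein, had 57 of 93 (61.3%) and 0 of 50 (adjusted p = 2.26e-12, Fisher's exact test). Hsp90ab1 had 50.2% and 2.10% (adjusted p = 1.73e-109, Fisher's exact test), and Abcb1b 42.6% and 7.06% (adjusted p = 7.98e-91, Fisher's exact test). The 2 rises were Plin1, with 7.79% and 20.0% (adjusted p = 0.0376, Fisher's exact test), and Cyp21a1, with 0.133% and 0.458% (adjusted p = 0.00577, Fisher's exact test). With replicate 1 thinned to the depth of replicate 2 both lost the call, at shares of 8.78% and 20.0% for Plin1 (adjusted p = 0.634, Fisher's exact test) and 0.193% and 0.458% for Cyp21a1 (adjusted p = 0.854, Fisher's exact test). Plin1 also lost it with Prefix models of at least 5 reads alone and with spliced models alone, at adjusted p = 0.119 and 0.0719 by Fisher's exact test. The smallest fall called was Cyp11a1, with 0.449% and 0.105%, and it lost the call among spliced models alone, at 0.874% and 0.458% (adjusted p = 0.442, Fisher's exact test). Reads of models with 1 exon thus lowered the Cyp11a1 share more in replicate 2, and part of the fall came from them.

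The genes with the largest mean share were Son, at 89.1% and 81.1% of its reads, Sec62 at 61.1% and 48.0%, Ccnl2 at 33.1% and 36.6%, and Pik3c2g at 35.5% and 31.8%, with Dus1l and Knop1. For Son, Sec62, Ccnl2 and Pik3c2g the difference between the libraries did not pass the test, at adjusted p of 1 for Son, 0.81 for Sec62 and 1 for Ccnl2 and Pik3c2g by Fisher's exact test.

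**Figure D5:**
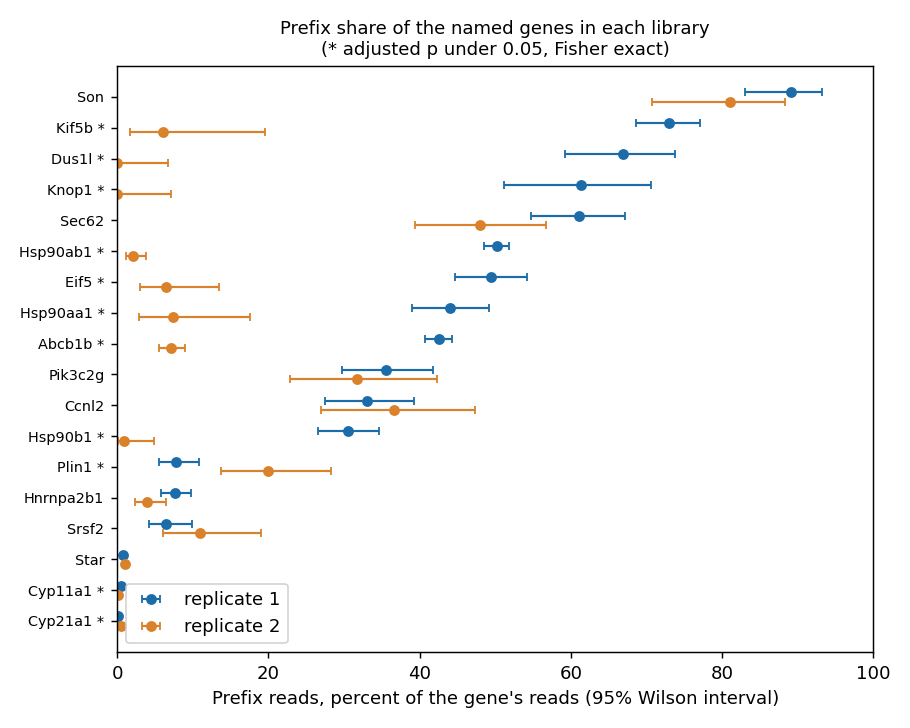
Points give the Prefix reads as a percent of all reads of the gene (horizontal, with 95% Wilson intervals) for each named gene with at least 20 reads in each library (vertical), in replicate 1 and replicate 2. Asterisks mark an adjusted p under 0.05. Son stands at 89.1% and 81.1%, while Dus1l and Knop1 stand at 66.9% and 61.3% in replicate 1 and at 0 in replicate 2.

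Gene lists were described by counts beside all genes with at least 20 reads, of which 434 of 6792 (6.39%) had a member in replicate 1 and 31 of 3730 (0.831%) in replicate 2. Of 14 genes of steroid synthesis 6 had a member in replicate 1 and 3 in replicate 2, and the test called 2 lower in replicate 2 (Cyp11a1 and Cyp11b1) and 1 higher (Cyp21a1). The Prefix reads of these 14 genes were 0.400% and 0.286% of all their reads, below the 1.76% and 0.476% over all genes. A gene with more reads reaches the read minimum for a member more easily, so the gene counts of the lists show no enrichment. Of 16 heat shock and chaperone genes 7 and 1 had a member, and 4 were called, all lower: Hsp90aa1, Hsp90ab1, Hsp90b1 and Hspd1. Prefix models took 14.5% and 0.592% of their reads. Of the medulla genes with at least 20 reads 3 of 12 and 0 of 10 had a member, and Chga and Chgb, which encode granule proteins of chromaffin cells, were called lower. The 7-exon member of Chga, at an exon end, had 99 reads and 0, at least 12-fold higher in replicate 1, and the 4-exon member of Chgb had 70 reads and 1.

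Of 19 SR and hnRNP splicing factor genes 4 had a member in replicate 1 and 2 of 16 in replicate 2, and Srsf11 alone was called, lower. In Hnrnpa2b1 4 members held 42 reads in replicate 1 and 1 member held 11 in replicate 2. Of the 18 genes of cholesterol synthesis and the 23 nuclear genes of oxidative phosphorylation, all with at least 20 reads in replicate 1, 0 had a member in either library. Of the cleavage and polyadenylation factors 1 of 16 had a member in replicate 1 and 0 of 4 in replicate 2. Of the receptors with known soluble or truncated forms it was 2 of 7 and 0 of 4, and of the long cytoskeletal and trafficking proteins 3 of 6 and 0 of 3, with Sptbn1 called lower. The median difference of the Prefix share was 0 over all genes tested. It was -0.635 percentage points for the chaperones, -0.439 for the splicing factors and 0 for steroid synthesis.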

How the data were processed

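The deposited values are raw counts, whole numbers of reads for each model with no normalization, in 1 table and 1 annotation of exons per library. Per the file headers, mm10 and GENCODE M21 were used and TALON made the models and classes. The aligner, tool versions and model filters: not given in the sources used here. Exon numbers and lengths come from the deposited tables.

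Members were Prefix models of genes with a mouse Ensembl gene identifier and at least 5 reads. Ends were placed on GENCODE M21 exons, and the sequence around them was read from M21 transcripts, since no mm10 genome was used. Each member was assigned to a longer annotated transcript that begins with its junction chain, the most read one and, where reads were equal, the longest. Libraries were joined by identical chains. Shares have 95% Wilson intervals, and ratios of CPM exact binomial ones.

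The Fisher test used scipy 1.17.1 and was tested on simulated data. A gene needed 20 reads in each library, or 50 to be named for its share. Named were the 12 genes with most member reads per 1000000, up to 6 members in introns in both libraries, the 6 largest mean shares, the 3 largest and 3 smallest called differences, and up to 4 genes per list with members in both libraries. Further members shown as examples were chosen after their values were seen. Members and lists were chosen with earlier results of these data known. Reads of near-identical genes were assigned upstream. The list of cytosolic ribosomal proteins is not reported here.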

Additional observations from a re-analysis of the deposited data

How the results depend on the processing

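Of 32 alternatives that leave out no library, 19 kept their value within the SD of the libraries, the counting interval or, for counts, 1.5 times, and 13 moved it. For the share of member reads that SD is wide, 0.641 around 0.587%, so that 1.12% with all Prefix models lies within it and says little of stability. With 2 libraries the value without either lies within the SD by construction. Member numbers followed the read minimum: 1187 and 103 models in replicates 1 and 2 at 3 reads, 266 and 14 at 10 reads. Thinning replicate 1 to the depth of replicate 2, chosen after seeing the data, left 210. The share ending in an intron averaged 5.53% over the libraries, 9.40% at 10 reads, and 16.6% when the intron of the matched transcript counted, also chosen after seeing the data. Leaving out a library gave 4.94% and 6.12%, and for member reads 0.133% to 1.04%. Requiring ends within 50 bp lowered the repeat to 75.5% of replicate 2 members and 24.2% of replicate 1 members, and requiring 5 reads in both lowered the latter to 6.37%. AATAAA alone gave 17.5% of replicate 1 ends. At least 60% A after the end gave 29.1%. The test called 25 genes instead of 45 when only the 1655 genes with at least 50 reads in each library were tested, and all 25 were among the 45. With replicate 1 thinned it called 30, all lower, of which 29 were among the 45. No paired analysis was possible because both libraries belong to 1 group.

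Replicate 2 is the shallower library, and a model with few reads in replicate 1 can be missing there at this depth. The sequence after most intronic ends was not analysed here. A single end per chain is deposited, and the spread of read ends was not used here.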
